A study of Mus musculus with 36 samples.

Results

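The 10 genes described here carry glucose into the cell and turn it into lactate, or control that route, and were taken by gene symbol from all 12 conditions of an RNA-seq time course. They are *Slc2a1*, *Hk1*, *Hk2*, *Pfkp*, *Pfkfb3*, *Pgk1*, *Pkm*, *Ldha*, *Slc16a3* and *Hif1a*, and each symbol matched 1 of the 53421 rows of the count table. All 10 had enough reads to be tested in every comparison. The cells were a conditionally immortalised line of mouse chondrocytes, labelled as fibroblastic, and were grown in low-glucose medium after release from the immortalising conditions. All cells were wild type. They were given either a pool of control siRNA with no target (NT) or a pool directed at *Ift88*, which encodes a protein of intraflagellar transport (IFT88siRNA). The labels give the siRNA at 50 nM, and the methods give a lower concentration. IL-1β was then left out (0 h) or added at 10 ng/ml, and RNA was taken 1, 2, 4, 8 or 24 h later, which gave 3 libraries in each of the 12 conditions and 36 in all. No untreated cells were collected at the later times, so the effect of IL-1β and the effect of hours in culture cannot be told apart. Nothing in the sources used here says whether the 3 libraries of a condition came from separate cultures, so p-values measure the spread between these libraries.

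Glucose enters most cells through the facilitative transporter GLUT1 (*Slc2a1*) and is trapped by hexokinases (*Hk1*, *Hk2*) as glucose 6-phosphate. Phosphofructokinase (*Pfkp*) commits the sugar to glycolysis and is stimulated by fructose 2,6-bisphosphate, which PFKFB3 makes. Phosphoglycerate kinase (*Pgk1*) and pyruvate kinase (*Pkm*) then yield ATP, lactate dehydrogenase A (*Ldha*) turns pyruvate into lactate, and the monocarboxylate transporter MCT4 (*Slc16a3*) exports it. HIF-1α (*Hif1a*) is a transcription factor that activates many of these genes in low oxygen, binding short elements with the core ACGTG or GCGTG. Cartilage has no blood vessels, and its chondrocytes are known to rely on glycolysis.

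Each library held from 19337022 to 38304127 reads counted on genes, and this depth gives a precision that covers counting error only. Of the chondrocyte markers, *Sox9* (5.98 to 34.5 TPM, transcripts scaled for gene length and depth) and *Comp* (4.18 to 22.0 TPM) were present, while *Acan*, *Col9a1* and *Matn3* stayed under 0.5 TPM in every library. *Col2a1* was at 1.43 to 9.05 TPM and *Hapln1* at 2.39 to 11.5 TPM. Of the fibroblast markers, *Col1a2* was at 414 to 1006 TPM, *Col1a1* at 65.0 to 130 TPM and *Col3a1* at 70.3 to 431 TPM. *Dcn* was at 11.05 to 575 TPM, *Pdgfra* at 6.11 to 26.9 TPM and *Thy1* at 3.29 to 19.7 TPM. The endothelial genes *Pecam1*, *Cdh5* and *Kdr* stayed under 0.5 TPM. Among epithelial genes, *Cdh1* was at 0.138 to 6.96 TPM, and *Epcam* and *Krt5* reached at most 0.391 and 0.975 TPM. The leukocyte gene *Ptprc* did not exceed 0.161 TPM, and *Cd68*, which macrophages share with other cells, was at 4.32 to 12.3 TPM. Of the other leukocyte markers, *Lyz2* was at 0.686 to 4.38 TPM, and *Adgre1* and *Cd3e* reached at most 0.0406 and 0.0317 TPM. *Ift88* was lower in IFT88siRNA at each of the 6 time points, by 1.47 to 2.12 on the log2 scale.

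The promoters of the genes were read first for the core that HIF binds. RefSeq (GRCm38.p6) gave 14 windows for the 10 genes, each from 250 bases before a start site to 50 bases after it. The letters ACGTG, on either strand, stood in a window of 9 of the 10 genes, and the exception, *Pfkp*, had GCGTG. Counted by window, 10 of 14 had ACGTG, against 19.6% of the 32851 windows in the RefSeq table. These windows are rich in G and C, and 12 of the 14 had at least 60%. Of those 12, 10 had ACGTG, against 26.5% of all windows that rich. ACGTG or GCGTG stood in 12 of 14 windows, against 43.8% of all. The NF-kB consensus, a motif of 10 letters searched on both strands, was found in 2 of 14 windows, 1 each of *Hk1* and *Pgk1*, against 8.5% of all. A match describes letters and not a bound site. The 250 bases before the start site are shown for 2 genes that rose within 1 h of IL-1β, *Slc2a1* (window chr4:119108495-119108794, plus strand) and *Hk2* (chr6:82774405-82774704, minus strand), and for 2 that rose at 24 h, *Pgk1* (chrX:106186850-106187149, plus strand) and *Ldha* (chr7:46845554-46845853, plus strand). Capitals mark ACGTG and GCGTG, or CACGT and CACGC where the core lies on the other strand, and the 6 letters CACGTG hold a core on each strand.
Slc2a1: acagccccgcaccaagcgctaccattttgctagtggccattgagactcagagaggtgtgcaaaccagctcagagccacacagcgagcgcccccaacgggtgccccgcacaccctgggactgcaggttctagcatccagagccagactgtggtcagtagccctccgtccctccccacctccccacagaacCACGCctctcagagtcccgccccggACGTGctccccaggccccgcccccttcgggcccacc
Hk2: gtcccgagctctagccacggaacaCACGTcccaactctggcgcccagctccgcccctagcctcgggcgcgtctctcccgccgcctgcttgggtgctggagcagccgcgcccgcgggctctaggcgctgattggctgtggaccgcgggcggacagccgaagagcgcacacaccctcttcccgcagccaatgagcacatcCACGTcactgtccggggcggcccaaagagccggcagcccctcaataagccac
Pgk1: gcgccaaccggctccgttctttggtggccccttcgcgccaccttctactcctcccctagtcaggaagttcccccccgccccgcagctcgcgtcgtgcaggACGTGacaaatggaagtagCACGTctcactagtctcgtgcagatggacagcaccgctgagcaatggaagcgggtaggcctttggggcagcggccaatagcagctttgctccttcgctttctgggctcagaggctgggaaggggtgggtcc
Ldha: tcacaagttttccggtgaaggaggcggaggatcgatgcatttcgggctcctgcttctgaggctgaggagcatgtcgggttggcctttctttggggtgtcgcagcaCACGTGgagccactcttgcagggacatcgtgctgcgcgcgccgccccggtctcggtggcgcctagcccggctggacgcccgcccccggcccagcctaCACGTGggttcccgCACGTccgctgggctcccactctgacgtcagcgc
Both kinds of gene carried the core, with 5 matches of ACGTG in the *Ldha* window shown, 2 in those of *Hk2* and *Pgk1*, and 1 in that of *Slc2a1*. Each CACGTG counts as 2 of these matches, 1 per strand, and the other *Ldha* window had 0 matches of ACGTG. The letters CACGTG, known as an E-box, stood at 2 places in the *Ldha* window shown, at 1 in a window each of *Pfkfb3* and *Hif1a*, and in 7.2% of all windows.

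In NT cells, 8 of the 10 genes were called higher after IL-1β than at 0 h, and none was called lower. A gene was called with an adjusted p-value under 0.05 (edgeR quasi-likelihood F-test, Benjamini-Hochberg over all 16048 genes tested) and a fold change over 1.5. With the 5 time points tested together, 50.0% of all genes were called and 23.6% of all genes were called with a rise as their largest change, so a call alone was common in these cells. From the first to the last of these time points, 4, 4, 4, 5 and 8 of the 10 genes were called, all higher, against 9.22%, 13.0%, 16.3%, 11.8% and 6.61% of all genes called higher and 18.7%, 27.3%, 28.7%, 19.7% and 16.3% called in either direction. The 10 genes were chosen with earlier results of these data known, so their counts beside these shares are a description and not independent evidence. The median log2 change of the 10 genes was 0.34, 0.37, 0.42, 0.61 and 1.37 at these times, and that of all genes lay between -0.02 and -0.01. The genes fell into an early set that was called at all 5 time points (*Hif1a*, *Slc2a1*, *Hk2* and *Pfkfb3*), a late set that was called at 24 h and not at 1, 2 or 4 h (*Pgk1*, *Pkm*, *Ldha* and *Slc16a3*), and *Hk1* and *Pfkp*, which did not pass the fold threshold.

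**Figure D1:**
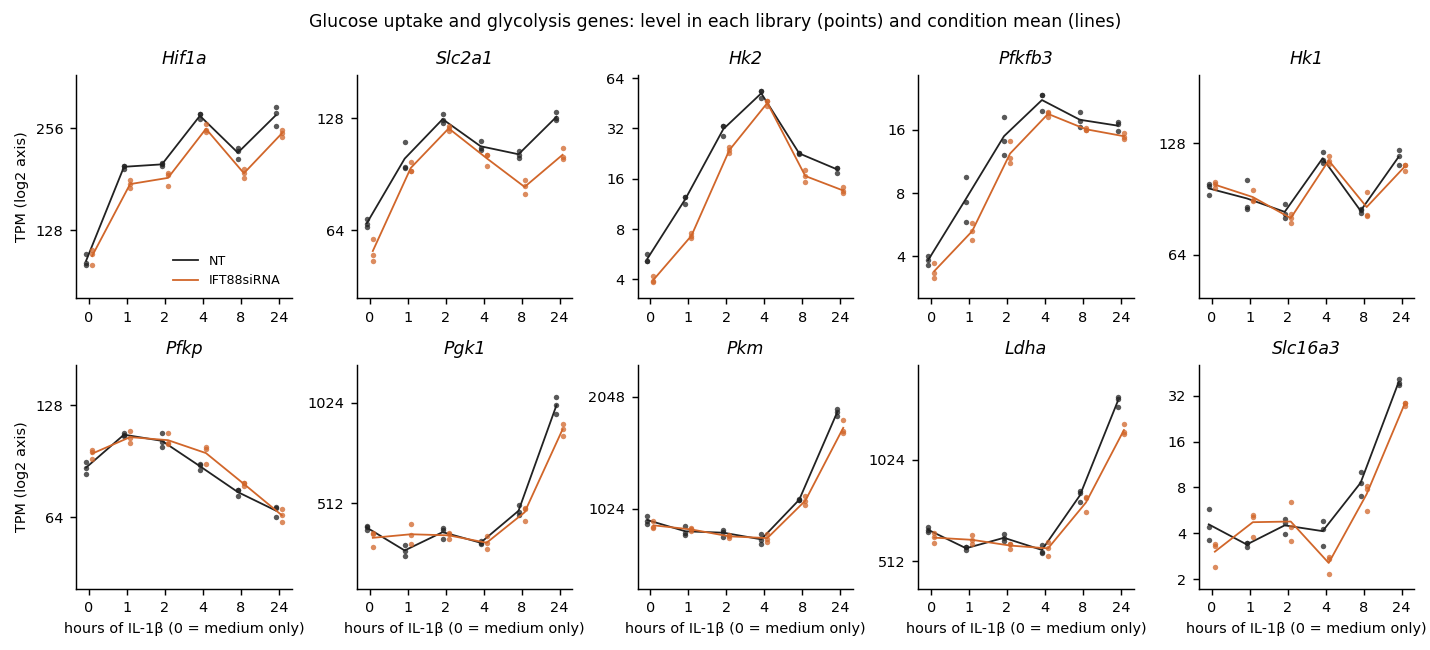
Level of the 10 genes in TPM on a log2 axis against hours of IL-1β, with each library as a point, the mean of 3 libraries as a line, NT in black and IFT88siRNA in orange. *Hk2* in NT rises from 5.13 to 5.68 TPM at 0 h to 48.5 to 53.7 TPM at 4 h, while *Ldha*, *Pgk1* and *Pkm* stay near their 0 h level until 4 h and are highest at 24 h.

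Among the early genes, the hexokinase gene *Hk2* moved most. Its 3 NT libraries were at 5.68, 5.13 and 5.15 TPM at 0 h, 12.5, 11.3 and 12.5 TPM at 1 h, 32.9, 28.8 and 33.3 TPM at 2 h, and 48.5, 53.7 and 53.4 TPM at 4 h. They were at 22.8, 22.7 and 22.5 TPM at 8 h and 17.4, 18.5 and 18.6 TPM at 24 h. Every later library was above every 0 h library, and no 2 time points overlapped. In the count data *Hk2* was 2.55-fold, 7.21-fold, 11.8-fold, 4.6-fold and 3.71-fold higher at the 5 time points in order, with a log2 change of 3.56 ± 0.06 (SE, n = 3 per time point, adjusted p = 1.21e-23 by edgeR) at 4 h. The steps from 1 to 2 h (log2 change of 1.5 ± 0.06), from 2 to 4 h (0.71 ± 0.05) and from 4 to 8 h (-1.35 ± 0.05) were each called, and the step from 8 to 24 h was -0.31 ± 0.06, under the fold threshold.

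*Pfkfb3*, the kinase whose product stimulates phosphofructokinase, followed a like course. Its NT libraries were at 3.63, 4.03 and 3.84 TPM at 0 h, 7.25, 5.81 and 9.50 TPM at 1 h, 14.2, 12.1 and 18.4 TPM at 2 h and 19.7, 23.3 and 23.4 TPM at 4 h. At 8 h they were at 16.5, 19.5 and 17.6 TPM, and at 24 h at 15.7, 17.4 and 17.1 TPM. All later libraries were above those at 0 h, with a wide spread at 1 and 2 h, and the values at 2, 8 and 24 h overlapped. The log2 change was 1.02 ± 0.11 at 1 h, 2.26 ± 0.10 at 2 h, 2.82 ± 0.10 at 4 h, 2.42 ± 0.10 at 8 h and 2.35 ± 0.10 at 24 h, a 7.07-fold rise at its highest. Of its steps, the one from 1 to 2 h was called (1.24 ± 0.09). The step from 2 to 4 h was 0.56 ± 0.08, and those from 4 to 8 h and 8 to 24 h were -0.40 ± 0.08 and -0.07 ± 0.08.

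*Slc2a1*, the transporter gene, started from a higher level and rose less. Its NT libraries were at 68.3, 66.3 and 65.4 TPM at 0 h and at 94.3, 94.3 and 110.2 TPM at 1 h, and at 2 h they stood at 127, 124 and 131 TPM. At 4 h they were at 111, 105 and 107 TPM, at 8 h at 105, 102 and 100.2 TPM, and at 24 h at 133, 128 and 126 TPM. The 0 h libraries were the lowest, and those at 2 and 24 h overlapped each other above the rest. The log2 change was 0.77 ± 0.05, 1.23 ± 0.05, 1.0 ± 0.05, 0.76 ± 0.05 and 1.11 ± 0.05 at the 5 time points in order, at most 2.35-fold. The call at 1 h did not hold on TPM, where the change was 0.57. No step between neighbouring time points passed the fold threshold for this gene.

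*Hif1a*, the transcription factor gene, was at 102, 109 and 101 TPM at 0 h in NT and at 198, 194 and 198 TPM at 1 h. At 2 h it was at 201, 198 and 202 TPM, at 4 h at 281, 281 and 273 TPM, at 8 h at 224, 219 and 207 TPM, and at 24 h at 283, 295 and 261 TPM. Every treated library was above every 0 h library, and 4 and 24 h overlapped. The log2 change was 0.97 ± 0.05, 1.13 ± 0.05, 1.63 ± 0.05, 1.07 ± 0.05 and 1.48 ± 0.05 in order of time, or 3.09-fold at 4 h (adjusted p = 9.95e-19 by edgeR). HIF-1α is controlled mainly through the stability of the protein, which RNA-seq does not measure.

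The late set held the enzymes after triose phosphate and the lactate exporter. *Ldha* in NT was at 645, 632 and 626 TPM at 0 h, 562, 563 and 551 TPM at 1 h, 598, 615 and 587 TPM at 2 h and 572, 539.9 and 545 TPM at 4 h. It was at 827, 768 and 813 TPM at 8 h and at 1572, 1557 and 1469.7 TPM at 24 h. The libraries at 1, 2 and 4 h were below those at 0 h on this scale, and those at 24 h were above all others. In the count data, scaled with TMM, the log2 change was 0.01 ± 0.05 at 1 h, 0.21 ± 0.05 at 2 h and 0.06 ± 0.05 at 4 h, so the fall in TPM at 1 h was not seen on the count scale. The change was 0.47 ± 0.05 at 8 h, under the fold threshold, and 1.41 ± 0.05 at 24 h, 2.65-fold higher (adjusted p = 1.69e-17 by edgeR).

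*Pgk1* was at 439, 427 and 435 TPM at 0 h in NT, 394, 388 and 390.1 TPM at 4 h, 505, 473 and 482 TPM at 8 h and 1010.3, 1063 and 944 TPM at 24 h. *Pkm*, the most abundant of the 10 genes in every condition, was at 979, 933 and 951 TPM at 0 h, 874, 823 and 844 TPM at 4 h, 1078, 1088 and 1082 TPM at 8 h and 1895, 1865 and 1821 TPM at 24 h. For both genes the 24 h libraries lay far above all earlier ones. The log2 change at 24 h was 1.33 ± 0.06 for *Pgk1* (2.52-fold) and 1.09 ± 0.04 for *Pkm* (2.13-fold), and at 1 to 8 h it was between 0.01 and 0.28 for *Pgk1* and between 0.11 and 0.31 for *Pkm*.

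*Slc16a3* changed most of the late genes and from the lowest level. Its NT libraries were at 3.6, 4.40 and 5.75 TPM at 0 h, 3.24, 3.44 and 3.47 TPM at 1 h, 3.94, 4.95 and 4.66 TPM at 2 h and 4.28, 3.31 and 4.82 TPM at 4 h. At 8 h they were at 8.53, 7.07 and 10.1 TPM and at 24 h at 37.8, 40.9 and 38.7 TPM. The 1 h libraries were below those at 0 and 2 h on this scale, those at 0, 2 and 4 h overlapped, the 8 h libraries were above all earlier ones, and the 24 h libraries stood well apart. The log2 change at 1 h in the counts was 0.15 ± 0.12, so the fall in TPM was not seen there. The log2 change was 0.89 ± 0.11 at 8 h (adjusted p = 1.47e-07 by edgeR) and 3.03 ± 0.09 at 24 h, 8.19-fold higher. At 0 h the gene had 97 to 123 reads per NT library.

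The 4 late genes were also called from 8 to 24 h, with log2 steps of 0.94 ± 0.05 for *Ldha*, 1.05 ± 0.06 for *Pgk1*, 0.78 ± 0.04 for *Pkm* and 2.14 ± 0.08 for *Slc16a3*. In that step 3.15% of all genes were called higher and 13.4% in either direction. Over the 4 steps, 10 of 40 pairs of gene and step were called, 8 of them higher. From 1 to 2 h, 2 to 4 h and 4 to 8 h, 2, 1 and 3 of the genes were called, against 11.9%, 27.1% and 16.9% of all genes. The 2 falls were those of *Hk2* and *Hk1* from 4 to 8 h, and the fall of *Hk1* (-0.64 ± 0.04) was not called with upper-quartile scaling or on TPM. The summed TPM of the 10 genes in NT was 2390 ± 39 (SD, n = 3) at 0 h, 2459 ± 50 at 4 h, 2899 ± 45 at 8 h and 5066 ± 165 at 24 h, so 0.507% of all transcripts came from these genes at 24 h, against 0.239% at 0 h.

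The other 2 genes changed less. *Hk1* in NT was at 97.9, 99.1 and 92.9 TPM at 0 h, at 121, 113 and 115 TPM at 4 h, and at 122, 118 and 112 TPM at 24 h. Both of these times were above 0 h in every library, with log2 changes of 0.54 ± 0.05 and 0.40 ± 0.04 that passed the adjusted p-value but not the fold. *Pfkp*, the platelet-type phosphofructokinase, was at 90.4, 83.8 and 87.0 TPM at 0 h, at 106, 107 and 108 TPM at 1 h and at 64.2, 68.3 and 67.8 TPM at 24 h. The 1 h libraries were above and the 24 h libraries below those at 0 h, and its log2 change went from 0.53 ± 0.04 to -0.31 ± 0.04, both under the fold threshold.

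In several steps the isozymes therefore did not keep their proportions. Of the hexokinase transcripts in NT (5 genes, in TPM), *Hk2* made up 5.22% ± 0.28 (SD, n = 3) at 0 h, 11.8% ± 1.5 at 1 h, 30.8% ± 1.9 at 4 h and 13.4% ± 0.93 at 24 h, and *Hk1* nearly all of the rest. Of the phosphofructokinase transcripts, *Pfkp* made up 44.9% ± 1.0 at 0 h, 61.5% ± 0.99 at 4 h and 24% ± 0.65 at 24 h. The liver-type isozyme *Pfkl* was at 28.9% ± 0.99, 21.4% ± 1.4 and 60.5% ± 1.1 at the same times, so the leading gene at 4 h and the leading gene at 24 h differed. *Pfkfb3* rose from 11.3% ± 0.52 of its family of 4 genes at 0 h to 56.2% ± 3.4 at 4 h. *Ldha* was 98.2% or more of the transcripts of *Ldha* and *Ldhb* at each time point, and *Slc16a3* was 18.5% ± 0.79 of the monocarboxylate transporter transcripts at 24 h, behind *Slc16a1* (MCT1) with 81.5% ± 0.80. These shares were described and not tested.

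**Figure D2:**
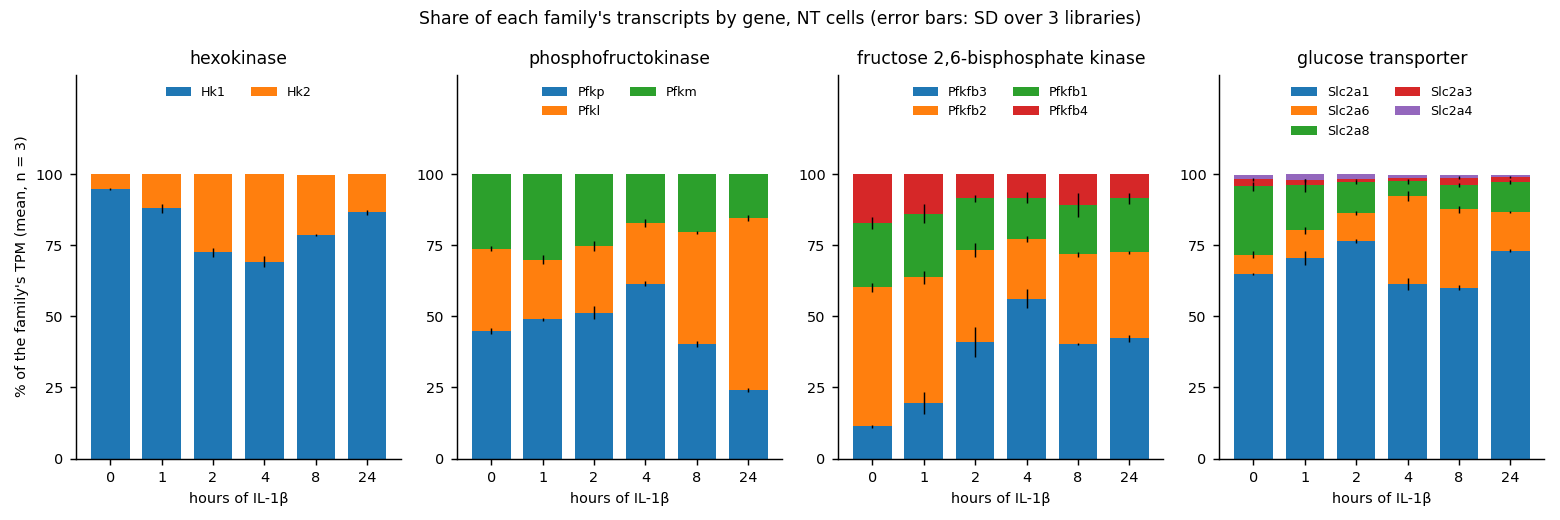
Share of each family's summed TPM by gene in NT cells against hours of IL-1β, for hexokinases, phosphofructokinases, the kinases that make fructose 2,6-bisphosphate and glucose transporters; stacked bars are means of 3 libraries, error bars are SD, and genes under 1% at all times are not drawn. *Hk2* reaches 30.8% at 4 h, and *Pfkl* goes from 28.9% at 0 h to 60.5% at 24 h.

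The wider pathway list held 87 genes grouped by role, the 10 included. It too was chosen with earlier results of these data known, so its counts beside the shares of all genes are descriptions. Of the 66 other genes tested, 28 were called higher and 13 lower in NT over the 5 time points, against 50.0% of all genes in either direction. Of the 6 other genes tested in upper glycolysis, 5 were called higher at 24 h, against 6.61% of all genes higher and 16.3% in either direction, with *Pfkl* at 1.72 ± 0.06, *Aldoc* (an aldolase) at 1.73 ± 0.13 and *Tpi1* (triose phosphate isomerase) at 1.19 ± 0.06 on the log2 scale. Of the 7 others in lower glycolysis, 3 were called higher and 1 lower, with *Gapdh* at 1.14 ± 0.04, *Pgam1* at 0.97 ± 0.05 and *Eno1* at 0.84 ± 0.04. At 4 h none of the lower glycolysis genes was called, and *Pfkl* was called lower (-0.59 ± 0.06).

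Around the entry of glucose, *Slc2a6* (a transporter of the same family as GLUT1) was called higher at all 5 time points, with a log2 change of 3.26 ± 0.10 at 4 h. *Slc2a8* was called lower at 4 h (-1.10 ± 0.09). *Txnip* and *Arrdc4*, arrestin-like inhibitors of glucose uptake, were lowest at 2 h, at -1.23 ± 0.05 and -1.0 ± 0.06. *Arrdc3*, listed with them, was at 0.62 ± 0.06 at 4 h by counts, and its largest change was a fall with upper-quartile scaling and on TPM. *Slc2a10* was called over the 5 time points together and at no single one of them (-0.93 ± 0.48 at 1 h).

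At the pyruvate end, *Slc16a1* rose from 26.4 ± 0.92 TPM (SD, n = 3) at 0 h to 173 ± 10 TPM at 24 h, a log2 change of 2.79 ± 0.05. *Pdk1*, a kinase that inhibits pyruvate dehydrogenase, was lower at 4 h (-1.09 ± 0.12) and higher at 24 h (1.94 ± 0.09). *Pdk2* was lower at 4 h (-1.24 ± 0.13), and *Pdp2*, a phosphatase that reactivates the enzyme, was lower at 2 h (-1.02 ± 0.09) and higher at 8 h (0.64 ± 0.07). *Ldhd*, which acts on D-lactate, was lower at 24 h (-0.70 ± 0.12), and *Pfkfb2* was lower at 4 h (-0.80 ± 0.09).

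Of the other HIF subunits and regulators, *Epas1* (HIF-2α) was lower at 2 h (-1.29 ± 0.35). *Egln3* was higher at 2 h (1.13 ± 0.22) and *Egln1*, which like it encodes a prolyl hydroxylase that marks HIF-α for destruction, was at 0.86 ± 0.05 at 24 h by counts, while its largest change on TPM was a fall. Of 13 HIF targets outside glycolysis, 9 were called higher at 24 h and none lower, against 6.61% of all genes higher, and 5 were called higher and 2 lower at 2 h, against 13.0% of all genes higher and 27.3% in either direction. *Vegfa*, the vascular growth factor, was 3.06 ± 0.06 higher at 2 h and *Adm* (adrenomedullin) 2.33 ± 0.05 higher at 1 h, both early. *Bnip3*, a mitophagy receptor, was at -1.06 ± 0.09 at 4 h and at 2.14 ± 0.07 at 24 h, late like *Pdk1* and *Pfkl*. Of 7 genes of the pentose phosphate pathway, which branches from glucose 6-phosphate, *Tkt* was the 1 called over the 5 time points together, at 0.59 ± 0.05 at 1 h. Of all genes, 50.0% were called in that test.

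**Figure D3:**
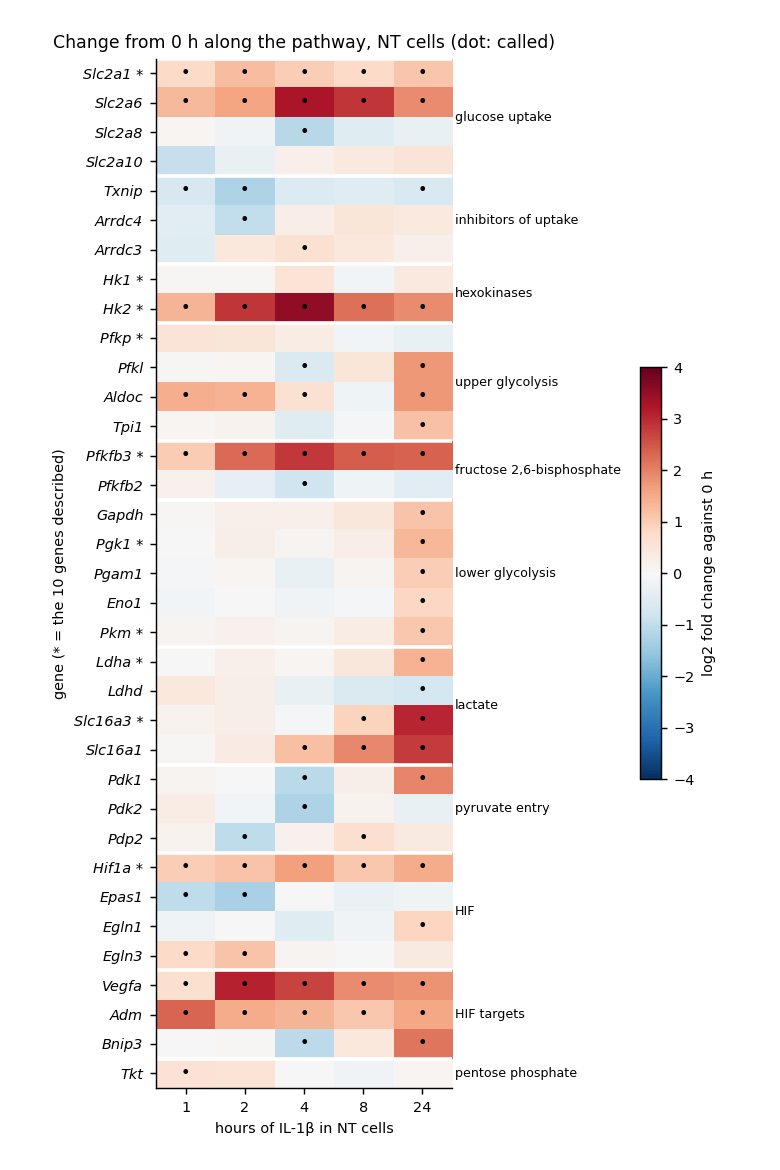
Log2 fold change from 0 h in NT cells over 5 times of IL-1β (1 to 24 h) for the 10 genes (starred) and 25 others named by rule, ordered by role, with a dot where the change was called. *Slc2a1*, *Hk2*, *Pfkfb3* and *Hif1a* carry a dot at all 5 times, while *Tpi1*, *Gapdh*, *Pgk1*, *Pgam1*, *Eno1*, *Pkm* and *Ldha* carry one at 24 h alone.

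The levels of the late genes moved together over the 12 condition means, with Pearson's r of 0.971 to 0.995 among *Ldha*, *Pgk1*, *Pkm* and *Slc16a3* on log2 CPM. These genes were grouped by their timing in the same data, so a high r among them follows in part from the grouping. Among the early genes, grouped in the same way, r was 0.79 to 0.92, lowest for *Slc2a1* and *Pfkfb3* and highest for *Hk2* and *Pfkfb3*. *Pfkp* had r of -0.763 to -0.703 with the late genes. Among all genes, those most like *Hk2* were *Nod2* (0.992), *Tbx3* (0.983) and *Dstn* (0.980), those most like *Pfkfb3* were *Sbno2* (0.986), *Fndc7* (0.983) and *Sphk1* (0.982), and those most like *Slc2a1* were *Rnf11* (0.956), *Zc3h12a* (0.948) and *Wipi2* (0.944). *Fndc7* was weakly expressed, with a mean log2 CPM of 0.79. The matches were picked as the highest among all genes tested, so their high r follows in part from that choice. All these values of r are descriptions over 12 points that share 1 time course and its controls.

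In IFT88siRNA cells, which were tested on their own 18 libraries, 8 of the 10 genes were called higher after IL-1β than at 0 h. These were the 8 called in NT. Of all 16129 genes tested there, 48.2% were called. In order of time, 5, 5, 4, 5 and 8 of the genes were called, all higher, against 6.82%, 12.4%, 16.0%, 10.5% and 6.36% of all genes called higher (15.1%, 25.6%, 29.3%, 17.6% and 14.2% in either direction). *Hk2* went from 3.9, 3.85 and 4.18 TPM at 0 h to 46.5, 43.4 and 46.4 TPM at 4 h, a log2 change of 3.78 ± 0.07. *Ldha* went from 605, 579 and 619 TPM at 0 h to 1223, 1239.8 and 1306 TPM at 24 h, a change of 1.15 ± 0.06. The early and the late sets were as in NT, except that *Slc16a3* was also called at 1 h (0.72 ± 0.14) and 2 h (0.60 ± 0.14). In these libraries *Slc16a3* was at 2.41, 3.29 and 3.40 TPM at 0 h and at 5.26, 5.15 and 3.81 TPM at 1 h, without overlap. Neither call held on log2(TPM + 1), and the call at 2 h was also lost with upper-quartile scaling and without replicate 1 or 3 at 0 h or replicate 2 at 2 h.

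Set against NT at the same time point, IFT88siRNA cells had lower *Hk2*. At 1 h its NT libraries were at 12.5, 11.3 and 12.5 TPM and its IFT88siRNA libraries at 7.60, 7.26 and 7.03 TPM. The groups did not overlap at any of the 6 time points, with IFT88siRNA below NT each time. The log2 difference was -0.39 ± 0.07, -0.70 ± 0.06, -0.41 ± 0.06, -0.17 ± 0.05, -0.44 ± 0.06 and -0.41 ± 0.05 over the 6 time points in order, and the adjusted p-value (edgeR) was under 0.05 at all but 4 h, where it was 0.079. At 1 h the level was 38.6% lower (adjusted p = 1.87e-06 by edgeR), and this was the 1 call among the 60 pairs of gene and time point. Of all genes, 2.23%, 2.66%, 0.496%, 0.432%, 0.692% and 1.15% were called at these times. With all 6 differences tested together, *Hk2* was the 1 gene of the 10 called, against 5.19% of all genes. The difference at 0 h was present before IL-1β was added.

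Without the fold threshold, the number of the 10 genes that differed between the siRNA groups was highest at 24 h. This number does not measure size, and the *Hk2* difference was largest at 1 h (-0.70). From 0 h to 24 h in order, 4, 3, 1, 0, 2 and 7 of the 10 genes had an adjusted p-value under 0.05, against 19.5%, 19.0%, 2.76%, 3.85%, 4.25% and 8.66% of all genes. The 7 at 24 h were all lower in IFT88siRNA, where 5.02% of all genes were lower by the same rule. They were *Slc16a3* (-0.46 ± 0.06), *Hk2*, *Slc2a1* (-0.35 ± 0.05), *Ldha* (-0.28 ± 0.06), *Pgk1* (-0.22 ± 0.06), *Hif1a* (-0.21 ± 0.06) and *Pfkfb3* (-0.20 ± 0.06). The adjusted p-values ran from 0.00011 for *Hk2* to 0.046 for *Pfkfb3*. *Hk1* (-0.07 ± 0.05), *Pkm* (-0.12 ± 0.06) and *Pfkp* (0.02 ± 0.05) did not pass. The median over the 10 genes was -0.21, and that of all genes was -0.00115.

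At 24 h *Slc16a3* stood at 37.8, 40.9 and 38.7 TPM in NT and at 28.7, 27.6 and 28.5 TPM in IFT88siRNA, and *Ldha* at 1572, 1557 and 1469.7 TPM against 1223, 1239.8 and 1306 TPM. *Slc2a1* stood at 133, 128 and 126 TPM against 100.5, 99.4 and 106 TPM. In each of these genes the highest IFT88siRNA library was below the lowest NT library. The summed TPM of the 10 genes at 24 h was 5066 ± 165 (SD, n = 3) in NT and 4379 ± 147 in IFT88siRNA. At 0 h the sums were 2390 ± 39 and 2297 ± 64. At 0 h *Slc2a1*, *Hk2* and *Slc16a3* were already lower in IFT88siRNA, by 0.18, 0.39 and 0.39 on the log2 scale, and *Pfkp* was higher by 0.16 ± 0.04, while 19.5% of all genes differed by adjusted p-value alone.

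**Figure D4:**
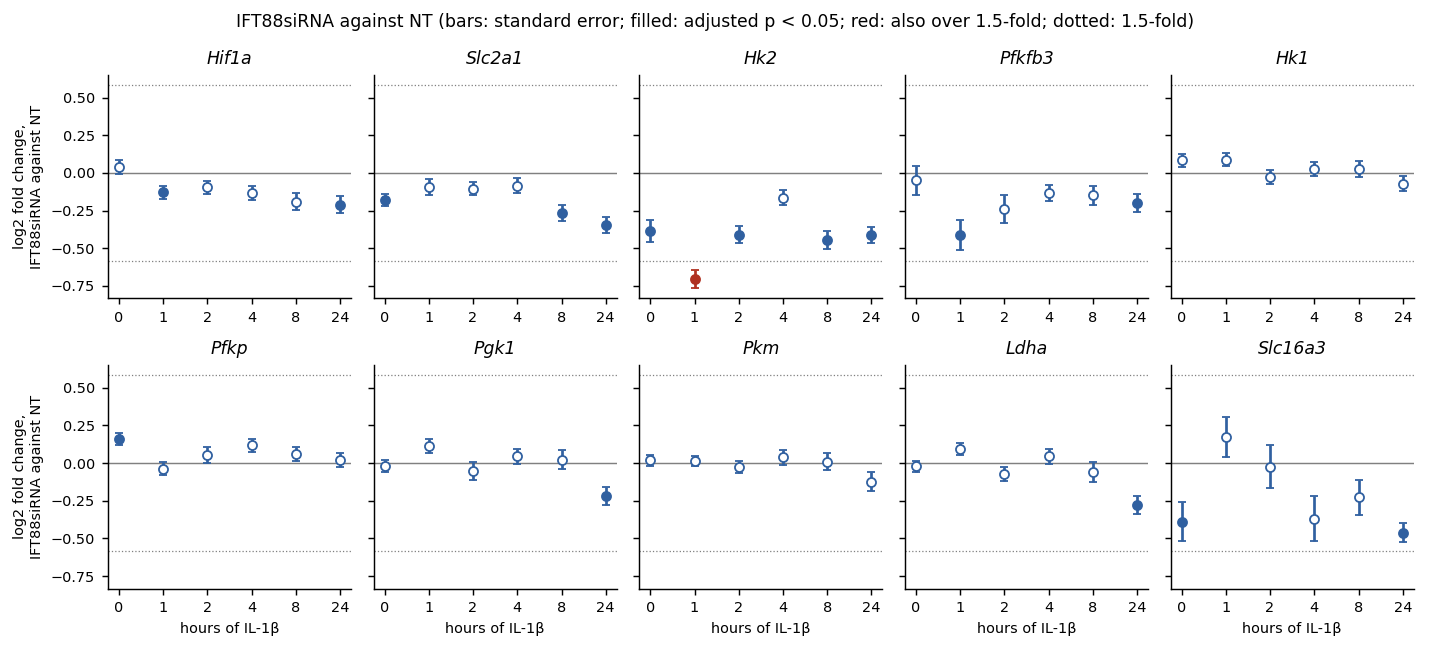
Log2 difference between IFT88siRNA and NT at each time point for the 10 genes, with the standard error as a bar, a filled point where the adjusted p-value was under 0.05, red where the fold also passed 1.5, and dotted lines at that fold. *Hk2* lies below 0 at all 6 times and is red at 1 h (-0.70), and 7 of the 10 genes have a filled point below 0 at 24 h.

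Whether the change after IL-1β differed in the depleted cells was tested as the difference between the changes from 0 h. None of the 10 genes was called with the 5 differences tested together, against 1.20% of all 16710 genes. At an adjusted p-value (edgeR) under 0.05 alone there were 2, *Hk2* (0.0017) and *Ldha* (0.026), against 5.53% of all genes. The largest difference for *Hk2* was at 1 h (-0.31 ± 0.10, a smaller rise in IFT88siRNA), while at 4 h it was 0.23 ± 0.09 in the other direction. For *Ldha* it was at 24 h, at -0.25 ± 0.08. At 24 h alone none of the 10 genes passed the adjusted p-value, against 0.341% of all genes. The difference was below 0 for all 10, with a median of -0.15 against 0.00215 for all genes. Levels of several of these genes moved together, so the 10 signs are not independent. For *Slc16a3* the difference was 0.57 ± 0.19 at 1 h (adjusted p = 0.13 by edgeR) and -0.07 ± 0.16 at 24 h. Of the 66 other genes of the pathway list, 2 were called, *Slc2a6* and *Ndrg1*, a stress-induced gene listed among the HIF targets, both named after their values were seen. *Slc2a6* rose from 6.98 ± 1.3 to 13.7 ± 1.8 TPM (SD, n = 3) within 1 h in NT and from 6.34 ± 0.79 to 8.92 ± 0.57 TPM in IFT88siRNA, a difference of -0.62 ± 0.17.

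Some of these counts could share reads with other features. In the reference annotation (GENCODE, GRCm38) the 10 genes are protein coding, and exons of *Pkm* (chr9:59656368-59679375) overlap Gm49759, a model that awaits experimental evidence, on the same strand over 15.3% of their length, while *Pfkp* (chr13:6579768-6648777) overlaps *Pitrm1* over 5.58% and *Hif1a* (chr12:73901375-73947530) overlaps Gm15283 over 5.60%, both on the opposite strand. Counting with default parameters does not use strand and leaves out reads that fall on more than 1 gene. Processed copies of *Ldha* and *Pgk1* had at most 210 and 175 reads per library. The other genes lie at chr4:119108711-119137983 (*Slc2a1*, plus strand), chr10:62268855-62379908 (*Hk1*, minus), chr6:82725025-82774454 (*Hk2*, minus), chr2:11471433-11554077 (*Pfkfb3*, minus), chrX:106187100-106203699 (*Pgk1*, plus), chr7:46841475-46855627 (*Ldha*, plus) and chr11:120948480-120960868 (*Slc16a3*, plus).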

How the data were processed

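Poly(A) RNA was sequenced by the authors as paired-end reads on 3 lanes of a flow cell, and no source used here assigns a library to a lane. The authors aligned the reads to GRCm38 with HISAT2 2.1.0 and deposited raw counts of reads per gene from featureCounts (Subread 1.6.3, default parameters). The authors also deposited TPM per gene from Salmon 0.9.1, which corrects for GC content. Counts were tested in R 4.3.3 with edgeR 4.0.16 (TMM scaling, filterByExpr, quasi-likelihood F-tests, Benjamini-Hochberg over all genes tested), and a call needs both thresholds, 0.05 for the adjusted p-value and 1.5 for the fold change. Levels are printed as TPM, which is per length, and changes come from the counts, so small changes can differ between them. Standard errors were derived from the log2 fold change and its F-statistic. The siRNA groups were compared within each time point (3 libraries against 3), the time courses were fitted on 18 libraries per siRNA group, and the response test used all 36. An exact permutation test of 3 against 3 libraries cannot give a p-value under 0.1.

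The 10 genes and the pathway lists were chosen with earlier results of these data known. Named genes are the 10, and of each list up to 3 others called over the 5 time points in NT with the largest change. Alternatives were DESeq2 1.42.0, scaling by its size factors or by the upper quartile, dropping the filter on low counts, no fold threshold, the replicate number as a block, each library left out in turn, and limma 3.58.1 run on log2(TPM + 1) for genes at 1 TPM in 3 libraries, with a pseudocount of 0.1 or with no filter. Replicates of a condition differed by more than sampling noise (chi-square per degree of freedom of 1.71 to 10.9), so none was a repeat deposit. On simulated counts with a log2 change of 1 in 200 genes, 97.5% to 100% were recovered with 2 to 5 false calls per test. The simulation gave every gene the same dispersion and changed only genes with more reads, by more than the fold threshold. It therefore does not measure how well smaller changes, such as most differences between the siRNA groups, are found. Promoters came from RefSeq (GRCm38.p6) and gene positions from GENCODE (GRCm38). Python 3.11.15 with matplotlib 3.10.9 drew the figures.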

Additional observations from a re-analysis of the deposited data

Results flagged for a closer look

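Of the 76 pathway genes tested, 12 had a response to IL-1β that differed between the siRNA groups by the test of the difference itself (edgeR, the 5 differences in the change from 0 h tested together, adjusted p-value under 0.05, against 5.53% of all genes). The 4 given here are those of the 10 genes and those past the fold threshold. *Ndrg1* (-0.669 on the log2 scale at 24 h, adjusted p = 5.78e-07) was at 45.1 ± 2.2 TPM (SD, n = 3) at 0 h and 51.8 ± 1.9 TPM at 24 h in NT, and at 64.6 ± 0.93 and 47.5 ± 1.5 TPM in IFT88siRNA. *Slc2a6* (-0.618 at 1 h, adjusted p = 0.0069) had the smaller rise in IFT88siRNA given above. *Hk2* (-0.31 at 1 h, adjusted p = 0.0017) and *Ldha* (-0.251 at 24 h, adjusted p = 0.026) passed the adjusted p-value and not the fold threshold.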

How the results depend on the processing

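The counts of called genes among the 10 were the same with DESeq2 and with its size factors. Whether a value was called was kept for all 290 values of single genes under both. Direction was compared, and kept, only for the values that were called. With no fold threshold, the pairs called rose from 25 to 39 of 50 for IL-1β in NT, from 27 to 42 of 50 in IFT88siRNA, from 10 to 34 of 40 for neighbouring time points and from 1 to 17 of 60 between the siRNA groups. By that setting, 44.9% to 60.9% of all genes were called at single time points in NT and 39.8% to 59.8% in IFT88siRNA. The shares were 41.4% to 61.4% for neighbouring time points and 2.76% to 19.5% between the siRNA groups. Over 6 time points, 7 genes in place of 1 were called between the siRNA groups, against 31.8% of all genes. In the response, 2 in place of 0 were called, against 5.53% of all genes. With a TPM pseudocount of 0.1, 2 genes were called between the siRNA groups, *Slc16a3* joining *Hk2*, and with no filter on low counts 1 was called in the response, *Slc16a3*. With 1 library left out, counts stayed at 8 in both siRNA groups for IL-1β over 5 time points, at 25 for single time points in NT, at 26 to 27 in IFT88siRNA, at 9 to 11 for neighbouring time points and at 1 between the siRNA groups in both tests. The response count was 0 to 1, and the 1, *Slc16a3*, appeared without replicate 3 of IFT88siRNA at 1 h. With a replicate block in the fit, the counts of calls did not change. Same-numbered libraries of the siRNA groups had correlations of -0.133 to 0.223 in their deviations, over 0.1 in 2 of 18 pairs. Libraries with different numbers had -0.303 to 0.319. No pairing by number was seen, and this measure cannot exclude one.

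On TPM with either pseudocount, *Slc2a1* at 1 h in NT and at 8 h in IFT88siRNA was not called. *Pfkfb3* at 1 h and *Slc16a3* at 1 and 2 h in IFT88siRNA were not called with a pseudocount of 1 and stayed called with 0.1. No called change of the 10 genes reversed, and the direction of changes not called was not compared. Of the other genes, *Arrdc3* reversed from 0.62 to -0.56 with upper-quartile scaling and to -0.57 on TPM (-0.58 with a pseudocount of 0.1), and *Egln1* from 0.86 to -0.75 on TPM (-0.76 with that pseudocount), since another time point then held the largest change. With no filter on TPM, *Epas1* went from -1.29 to 0.31 and *Slc2a10* from -0.93 to 0.21. *Aldoc* at 4 h went from 0.62 to -0.0076 on TPM (-0.0084 with a pseudocount of 0.1), and the cause of the last 3 was not tested. The other scalings moved the median of all genes by at most 0.112 on the log2 scale. Genes near 4 TPM, such as *Slc16a3* at 0 h, rest on about 100 reads per library, which limits the precision of small changes there.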
